A study of Oryza sativa Japonica Group with 8 samples.

Results

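OsNRT2.3 encodes a high-affinity nitrate transporter of rice and gives rise to the mRNA isoforms OsNRT2.3a and OsNRT2.3b. The 90-nt segment described here is kept in OsNRT2.3a and absent from OsNRT2.3b. It was taken by position, from 236 to 325 of the amplified OsNRT2.3a stretch, and its 49 A and C positions are the ones that can carry a signal. They were 49 of 165 such positions of OsNRT2.3a and 49 of 485 over the 3 transcripts measured. The measurements of the segment came from 2 root libraries of 8 in the series. Both were made from seedlings of the cultivar Nip (Nipponbare) aged 2 weeks and grown in nutrient solution. One library was from seedlings immersed for 15 min in 1% DMS, and the other from seedlings given water in place of DMS. The number of seedlings behind a library is not given in the sources used here. With 1 library per condition, the values carry no error between replicates, and the conditions could not be tested against each other. Every SD is a spread over positions, which are not replicates.

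Transporters of the NRT2 family carry nitrate into plant cells together with protons when nitrate outside is scarce. OsNRT2.3a acts in the xylem of the root in moving nitrate to the shoot, and OsNRT2.3b acts in the phloem of the shoot. The paper describes the stretch that OsNRT2.3b lacks as an intron, which OsNRT2.3a would then retain. Whether the stretch is removed as an intron was not tested. Most plant introns begin with GT and end with AG, written as DNA. Dimethyl sulfate (DMS) methylates A and C at the edge used for base pairing, so that bases paired or covered in the cell react less. In DMS-MaPseq the enzyme that copies the RNA passes the methylated base but puts a wrong base into the cDNA. The mismatch percentage with DMS minus that without DMS at the same base is called the rise here, in percentage points, and its mean over A and C positions the DMS signal. A position is called raised where the rise was 0.5 percentage points or more. The values at G and T are listed at 0 in both libraries and were not used. The depth at a position is unknown, so no counting interval can be given.

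The segment is shown whole because most sites below lie in it, with the 30 nt after it. Sequences are read 5′ to 3′, as DNA, and capitals mark each raised A or C.
segment: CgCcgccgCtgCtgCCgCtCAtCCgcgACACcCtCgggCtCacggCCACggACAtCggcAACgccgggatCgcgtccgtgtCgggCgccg
first 30 nt after the segment: tgttcgCgCgtctggCcAtgggCACggCgt
Bases of the segment are counted from 1 at position 236 to 90 at position 325. The ATG starts at position 43, so the segment covers nt 194 to 283 of the coding sequence. It begins at the second base of codon 65 and ends at the first base of codon 95. Its length equals 30 codons, so its absence does not shift the reading frame. It is exonic coding sequence in OsNRT2.3a. No genome was used, and chromosome coordinates are not given. With 10 A, 39 C, 30 G and 11 T it was richer in G and C (76.7%) than the 90 nt before it (60%) and the 65 nt after it (73.8%), called the upstream and downstream flank. The dinucleotide CG occurred 18 times in the segment, 7 times in the upstream flank and 9 times in the downstream flank.

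The segment reacted with DMS in root. Over its 49 A and C positions, the mean mismatch percentage was 0.0969% in the untreated library and 1.22% in the treated one, a DMS signal of 1.13 percentage points (SD 1.05 over positions). This is a ratio of 12.6. The mismatch percentage was higher with DMS at 43 of the 49 positions and not higher at the other 6. The rise ran from -0.284 to 4.25 percentage points, with a median of 1.08 and quartiles of 0.319 and 1.59. Raised positions numbered 33 (67.3%), and the share over all 165 A and C positions of OsNRT2.3a was also 67.3%. At the 116 positions outside the segment it was 67.2%. The rise reached 1 percentage point at 25 of the 49 positions of the segment and at 76 of all 165 (46.1%). The treated value was at least 2 times the untreated one at 42 of the 49 and at 134 of all 165 (81.2%). By these counts the segment was equal to or slightly above the whole stretch that was read, of which it is a part.

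The signal of the segment lay between those of its flanks. The upstream flank went from 0.133% to 1.24% over 41 positions, a signal of 1.11 percentage points (SD 1.102). The downstream flank went from 0.0524% to 1.28% over 27 positions, a signal of 1.23 percentage points (SD 0.909). The segment minus the upstream flank was 0.0203 percentage points, and minus the downstream flank -0.103. Minus both flanks together, with a signal of 1.16, it was -0.0286. The sign of that difference changed under several alternatives given in the closing section. Raised positions numbered 27 in the upstream flank (65.9%) and 20 in the downstream flank (74.1%). The 48 positions farther upstream gave the lowest signal, 0.989 percentage points (SD 0.980). The medians were more unequal than the means, 0.689 in the upstream flank, 1.08 in the segment and 1.103 in the downstream flank.

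**Figure D1:**
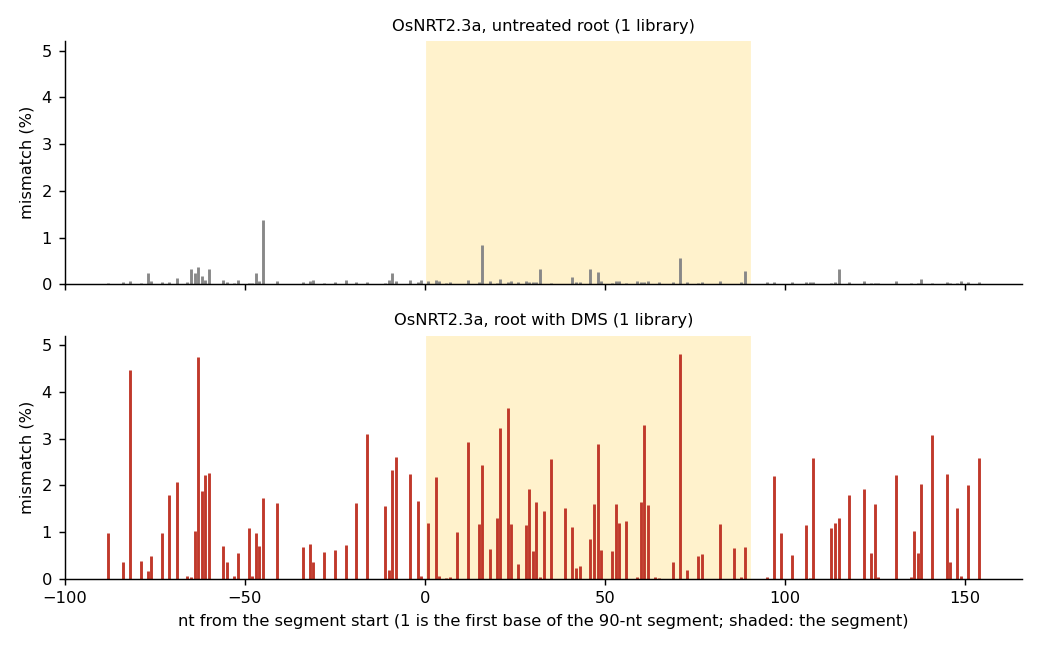
Mismatch percentage at each A and C of the segment (shaded) and its flanks, by distance in nt from the segment start, in the untreated (top) and DMS-treated (bottom) root library of OsNRT2.3a, on the same axis. The treated bars are high on both sides of the shaded segment and within it, up to 4.80% at base 71.

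Both bases took part. At the 10 A positions of the segment the mean went from 0.0781% to 1.52%, a signal of 1.44 percentage points (SD 1.16), and all 10 were higher with DMS. At the 39 C positions it went from 0.102% to 1.15%, a signal of 1.05 percentage points (SD 1.02), and 33 were higher. A was also above C in both flanks, with 1.36 and 1.06 in the upstream flank (7 and 34 positions) and 1.53 and 1.18 in the downstream flank (4 and 23 positions). Without DMS, 6 of the 49 positions of the segment were above 0.2%. The highest of them were C at base 16 (0.842%) and C at base 71 (0.551%). With DMS they stood at 2.43% and 4.80%.

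**Figure D2:**
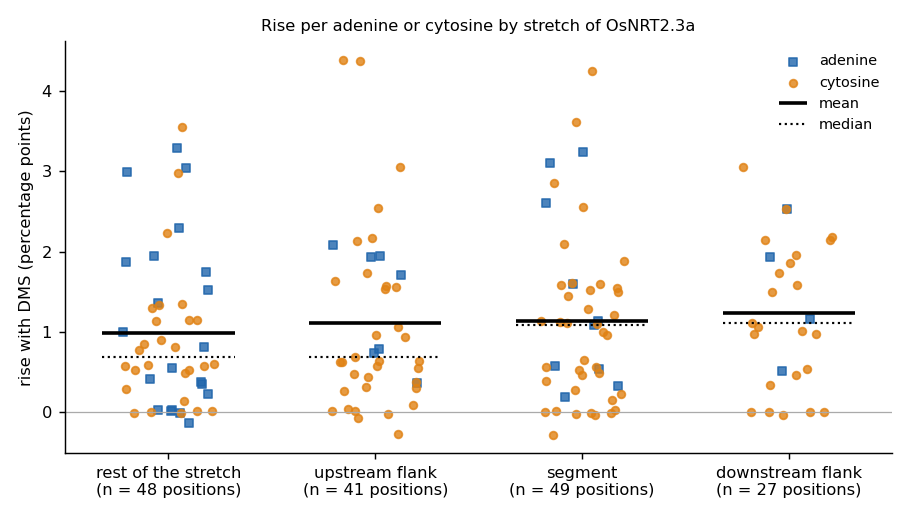
Rise with DMS (percentage points) of each A (squares) and C (circles) in the positions farther upstream, the upstream flank, the segment and the downstream flank of OsNRT2.3a, with means (solid lines) and medians (dotted lines). The 4 clouds overlap over most of their range, with means of 0.989, 1.11, 1.13 and 1.23.

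The rise was uneven along the segment. Its first 30 nt had a signal of 1.29 percentage points (SD 1.08, 18 positions), its middle 30 nt 1.08 (SD 0.818, 18 positions) and its last 30 nt 0.968 (SD 1.33, 13 positions). Raised positions numbered 14 of 18, 14 of 18 and 5 of 13 in these parts, beside a share of 67.3% over all 165 positions. The median of the last part, 0.464, was below those of the first (1.11) and the middle part (1.17).

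The 6 positions with the largest rise held 35.6% of the summed rise of the segment. This share was not worked out for the flanks, where the largest rises were 4.39 (upstream) and 3.05 (downstream) percentage points. C at base 71 went from 0.551% to 4.80%, a rise of 4.25 percentage points. C at base 23 went from 0.0462% to 3.66%, and A at base 21, 2 nt before it, from 0.118% to 3.23%. Their rises were 3.62 and 3.11 percentage points. A at base 61 went from 0.0448% to 3.29%, C at base 12 from 0.0872% to 2.94%, and A at base 48 from 0.268% to 2.88%. Of the 6, 3 were A, while A made up 10 of the 49 positions.

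Runs were listed only within the segment, where unbroken runs of 5 or more raised positions were found in 2 places. All 9 A and C positions from base 9 to base 24 were raised, with a lowest rise of 0.556, a median of 1.28 and a mean of 1.80. All 8 from base 46 to base 56 were raised too, with a lowest rise of 0.518, a median of 1.17 and a mean of 1.22. No run of 5 or more positions below the limit of 0.5 percentage points occurred in the segment. Of all 165 A and C positions of OsNRT2.3a 67.3% were raised, and unbroken runs lay outside the segment too. Every A and C from position 125 to 140 and from position 343 to 360 was raised.

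The 6 positions with the smallest rise are the 6 of the 49 that were not higher with DMS. All 6 were C, while C made up 39 of the 49 positions. C at base 32 fell from 0.316% to 0.0315%, between C at base 31, which went from 0.0377% to 1.65%, and C at base 33, which went from 0.00687% to 1.45%. C at base 59 went from 0.0723% to 0.0356% and C at base 65 from 0.0516% to 0.0198%. C at bases 4, 6 and 7 stood at 0.0620%, 0.0180% and 0.0460% with DMS, next to C at base 3, which went from 0.0854% to 2.18%. Silent and strongly reacting bases thus lay side by side.

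Mean rises of C differed with the base before it, which was not tested. In the segment, the 8 C that follow a T had a mean rise of 1.93 percentage points (SD 1.38), and the 10 C that follow a C had 0.627 (SD 0.739). The 6 C after an A had 1.23 (SD 0.667) and the 15 C after a G had 0.788 (SD 0.848). Those after a T include C at bases 71 and 23, with rises of 4.25 and 3.62. By median, C after an A were highest in the segment (1.54), above those after a T (1.24), a G (0.556) and a C (0.435). Outside the segment the C after a C were again the lowest, with 0.366 (SD 0.417, 20 positions). There the C after a T had 1.27 (SD 1.08, 23 positions), after an A 1.62 (SD 1.28, 11 positions) and after a G 1.12 (SD 0.922, 29 positions). For A, those after a C had 1.53 (SD 1.15, 6 positions) in the segment and 1.82 (SD 0.883, 13 positions) outside it. Those after a G had 0.656 (SD 0.390, 3 positions) and 0.578 (SD 0.707, 14 positions). In neighbouring C pairs the first C rose more than the second in 5 of 10 pairs of the segment and in 15 of 20 outside it.

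By place in the codon, the segment was lowest at second bases. The 16 second bases had a mean rise of 0.766 percentage points (SD 0.861), the 16 first bases 1.32 (SD 0.944) and the 17 at the end of a codon 1.29 (SD 1.26). In the upstream flank the mean was 1.38 (SD 1.51) at the 8 first bases. Its remaining means were nearly equal, 1.05 (SD 1.08) at the 21 at the end of a codon and 1.03 (SD 0.875) at the 12 second bases. By median that flank was lowest at the end of a codon (0.631), with 1.13 at second bases and 1.14 at first bases. Of its 12 second bases, 9 were raised, with 4 of its 8 first bases and 14 of the 21 at the end of a codon. In the segment 13 of 16 first bases, 9 of 16 second bases and 11 of 17 at the end of a codon were raised. The share over all 165 positions was 67.3%. The downstream flank had yet another order of means, 1.56 (SD 0.653) at the 10 second bases and 1.26 (SD 1.15) at the 8 first bases. Its 9 at the end of a codon had 0.831 (SD 0.857). In that flank 5 of 8 first bases, 10 of 10 second bases and 5 of 9 at the end of a codon were raised.

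As placed here, the ends of the segment are the points that are joined in OsNRT2.3b. Placements 1 to 5 nt farther upstream give the same joined sequence. At the upstream end, the 5 A and C positions in the last 10 nt before the segment went from 0.103% to 1.78%, a mean rise of 1.68 percentage points (SD 1.01). The 6 positions in the first 10 nt of the segment went from 0.0523% to 0.750%, a mean rise of 0.698 (SD 0.861). The step into the segment was -0.982 percentage points. Its size depends on the window, with -0.191 for 5 nt and -0.574 for 20 nt on each side. Outside the segment, C at 5 nt before the end went from 0.0801% to 2.25%, C at 3 nt from 0.0366% to 1.67%, and C at 2 nt from 0.0941% to 0.0700%. A at 10 nt went from 0.238% to 2.32% and C at 9 nt from 0.0661% to 2.61%. Inside it, C at base 1 went from 0.0732% to 1.19% and C at base 9 from 0.00523% to 1.00%. The first 10 nt inside also held the silent C at bases 4, 6 and 7.

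At the downstream end, the 4 positions in the last 10 nt of the segment went from 0.101% to 0.639%, a mean rise of 0.539 percentage points (SD 0.463). They were C at base 82 (from 0.0689% to 1.18%), base 86 (from 0.0138% to 0.659%), base 88 (from 0.0379% to 0.0476%) and base 89 (from 0.283% to 0.670%). The 3 positions in the 10 nt after it had a mean rise of 1.04 (SD 1.07). These were C at 5 nt (0.0483% and 0.0479%), at 7 nt (from 0.0552% to 2.20%) and at 9 nt (from 0.0138% to 0.981%). Inside minus outside was -0.498 percentage points. With 5 nt on each side, where only 1 position lies outside, the difference was 0.348, of opposite sign. With 20 nt on each side it was -0.0873, in a window that takes in base 71.

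**Figure D3:**
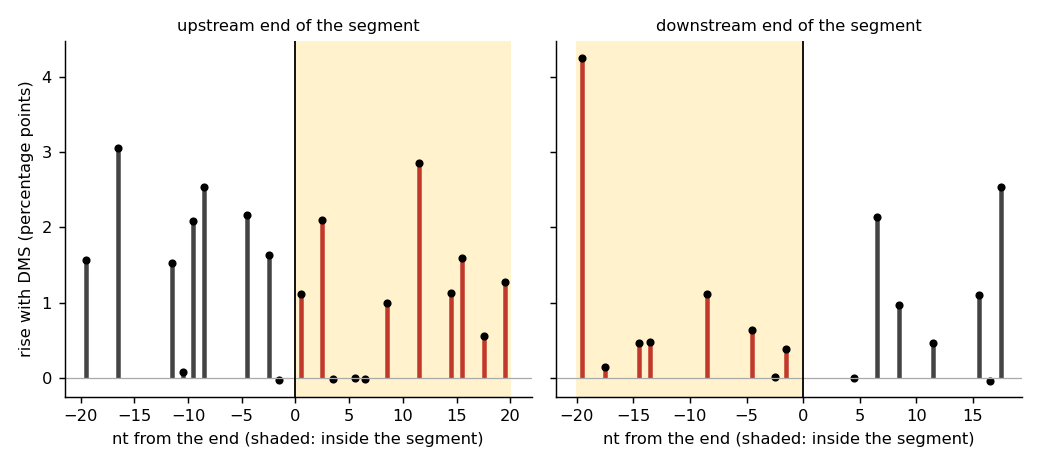
Rise with DMS (percentage points) of each A and C within 20 nt of the upstream (left) and downstream (right) end of the segment, by distance in nt, with the inside shaded and in red. Near-zero and high values stand on both sides of each end.

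The listed bases do not fix where the ends lie. The 5 bases before the segment and its last 5 bases are both cgccg. The 90 nt can be moved upstream by 1 to 5 nt without changing the joined sequence, which gives 6 equivalent placements. In 0 of the 6 did the removed stretch begin with GT, and in 0 did it end with AG. The reverse primer used for OsNRT2.3b, of 22 nt, matched the joined sequence in 1 place, with 16 nt before the joint and 6 nt after it, and the retained OsNRT2.3a sequence in 0 places. Its last 16 nt, the 3′ part, also match OsNRT2.3a directly before the segment. OsNRT2.3b itself was listed only up to 16 nt before the joint, so the joint was not read and the segment has values in OsNRT2.3a alone.

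The repeat allows the same 5 bases to be compared in one pair of libraries. In the sense strand, the letters cgccg occurred 5 times in the OsNRT2.3a stretch, and 55.9% of its 279 windows of 90 nt held at least 1 copy. The copy directly before the segment had rises of 2.17, 1.63 and -0.0241 percentage points at its 3 C. The copy at the end of the segment had 0.645, 0.00966 and 0.388. The copy that starts at base 1 had 1.12, 2.09 and -0.0112, and the copy at base 62 by 1.52, 0.0260 and -0.0319. The copy at base 4 shares its first base with the one before it and was flat, with -0.0112, -0.00291 and -0.00975. Mean rises of these copies ran from -0.00795 to 1.26 percentage points, so equal letters reacted unequally within this stretch.

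**Figure D4:**
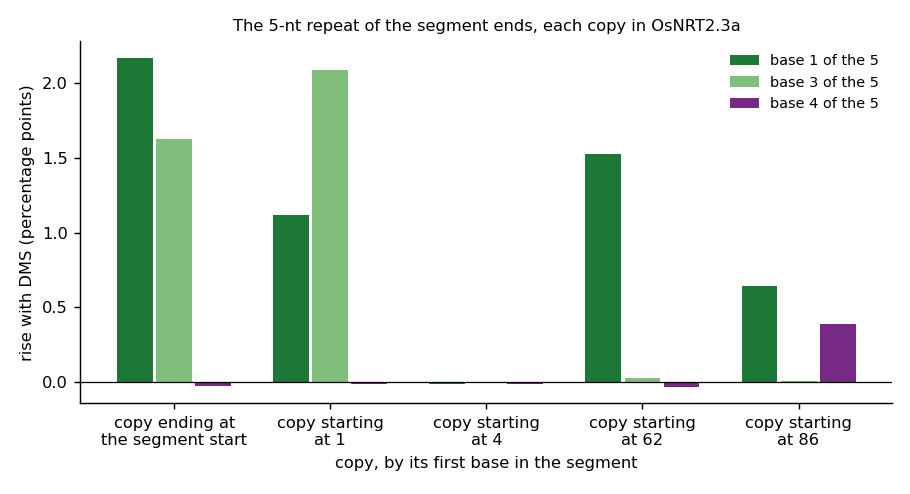
Rise with DMS (percentage points) at the 3 cytosines (bases 1, 3 and 4) of each of the 5 copies of the repeated 5 nt, by where the copy begins in the segment. The copy that ends at the segment start reaches 2.17 at its first base, and the copy starting at base 4 stays between -0.0112 and -0.00291.

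Pairing was predicted for the whole listed stretch of OsNRT2.3a, from which the probability that each base is unpaired was taken. The 49 positions of the segment had a mean unpaired probability of 0.348, and those of both flanks 0.345. Of the predicted pairing of the segment, 13.1% lay within it, 38.8% was with bases before it and 48.1% with bases after it. Across the 49 positions, the rise and the unpaired probability had a Spearman's rho of 0.344, and across the 116 positions outside the segment 0.229. It was 0.242 in the upstream flank (41 positions) and 0.0128 in the downstream flank (27 positions). These positions share 1 pair of libraries and neighbours in sequence, so rho is a description only. The 22 positions of the segment predicted to be paired (unpaired probability below 0.1) had a signal of 0.684 percentage points (SD 0.843), with 10 raised. The 20 between 0.1 and 0.9 had 1.72 (SD 1.096), with 19 raised. In both flanks these sets were in the other order. The 30 positions below 0.1 had 1.12 (SD 0.950), with 21 raised. The 27 between 0.1 and 0.9 had 0.993 (SD 0.980), with 18 raised. Outside the segment as a whole the same sets had 0.918 (SD 0.883, 48 positions, 30 raised) and 0.887 (SD 0.914, 42 positions, 27 raised). Of all 165 A and C positions, 67.3% were raised.

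Among the 7 positions of the segment above 0.9 the signal was only 0.846 (SD 0.760), with 4 raised. Outside the segment, 26 such positions had 1.72 (SD 1.13), with 21 raised, and the share raised over all 165 positions was 67.3%. The 3 of the 7 that were not raised were C at base 32, A at base 42 (from 0.0413% to 0.225%) and A at base 69 (from 0.0413% to 0.361%). In the other direction, C at base 23 and C at base 82 had unpaired probabilities of 0.0547 and 0.000112 and rises of 3.62 and 1.11 percentage points. The prediction covers only the listed stretch and no proteins, and the difference between these small sets was not tested.

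**Figure D5:**
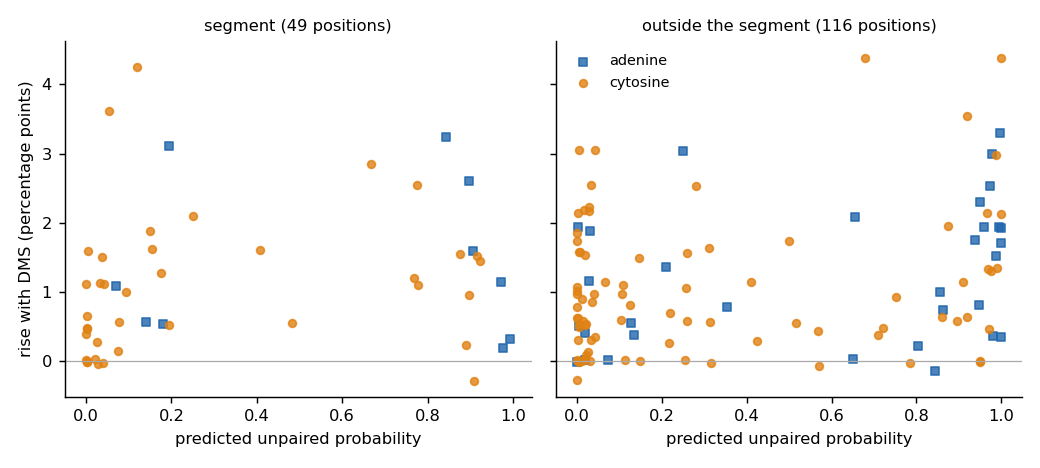
Rise with DMS (percentage points) against the predicted unpaired probability of each A (squares) and C (circles) in the segment (left, 49 positions) and outside it (right, 116 positions) in OsNRT2.3a. In the segment the highest rise, 4.25, stood at an unpaired probability of 0.119, and the values above 0.9 reached at most 1.597.

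Part of the upstream flank was also read in OsNRT2.3b, from shoot. Over the first 74 nt of that flank, with 34 A and C positions, OsNRT2.3a in root went from 0.141% to 1.18% and OsNRT2.3b in shoot from 0.137% to 0.119%. The signals were 1.04 and -0.0185 percentage points, with 22 and 0 positions raised, and OsNRT2.3a was higher at 32 of the 34. Isoform, tissue, amplified stretch and library changed together in this comparison and cannot be told apart. Whether DMS acted on the RNA behind the treated OsNRT2.3b library was not tested.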

How the data were processed

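Reads were processed by the authors, who trimmed adapters and poor bases (Trimmomatic), aligned the reads to the japonica reference with TopHat, kept unique alignments and dropped mismatches close to insertions or deletions. Tool versions and the genome build are not given in the sources used here. The deposited values are the fraction of mismatches in the depth at each position, from position 23 to 390 for OsNRT2.3a, with all G and T at 0. Fractions were multiplied to percentages and averaged without weights. Without depth, positions read by few and by many molecules count alike, and PCR without molecular identifiers hides the number of molecules. The sequence before the segment is not reported here.

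The segment, the flanks (146 to 235 and 326 to 390), the limits and the lists were chosen with earlier results of these data known. Sites named are the 6 largest and 6 smallest rises, those within 10 nt of an end, and runs of 5 or more positions. The repeat, the neighbouring bases and codon places were examined after the values were seen. Pairing was predicted with ViennaRNA 2.7.2 at 28°C. The temperature of the DMS treatment is 28°C in the methods and 30°C in the sample records. Calculations ran in pandas 2.3.3 and numpy 2.4.6 with scipy 1.17.1 under Python 3.11.15, with plots by matplotlib 3.10.9, and were tested on simulated data. RefSeq (assembly ASM3414082v1) lists OsNRT2.3 as LOC4324249. No test was run, since each condition has 1 library. Alternatives are given in the closing section.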

Additional observations from a re-analysis of the deposited data

How the results depend on the processing

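No paired analysis was possible because single libraries carry no replicate numbers to pair. A value in percentage points was taken as moved when it changed by more than 0.0259, the largest difference of untreated OsNRT1.1B between root and shoot over any 90 nt. This limit comes from untreated libraries of another transcript and does not measure how much a signal with DMS varies. Counts and correlations were taken as moved beyond 1.5 times. Leaving out the largest rise and moving the segment 5 nt upstream were alternatives added after seeing the data. For each change given here, the cause was not tested.

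Signals of the segment, upstream and downstream flank, in that order, were 1.08, 0.689 and 1.103 as medians, 1.22, 1.24 and 1.28 with no subtraction, 1.44, 1.36 and 1.53 at A, 1.05, 1.06 and 1.18 at C, and 1.24, 1.21 and 1.36 with A and C weighted equally. Without the 5% of positions highest with DMS the first 2 were 0.912 and 0.940. The segment gave 1.06 without its largest rise and 1.18 when placed 5 nt upstream.

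The segment minus both flanks was -0.0286 and changed sign with the medians (0.118), at A (0.0140), without the 10 nt on each side of both ends (0.136), against all other positions (0.0409) and placed 5 nt upstream (0.0674). It was -0.147 without the 5% highest positions, -0.0566 at C and -0.0937 without the largest rise. The order of segment and flanks is therefore not settled by these values.

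The step at the upstream end stayed below 0 in all 5 alternatives run: -0.191 with 5 nt, -0.574 with 20 nt, -1.59 with medians, -1.03 with no subtraction and -0.397 placed 5 nt upstream. At the downstream end it was -0.0873 with 20 nt, -0.451 with medians and -0.436 with no subtraction, and changed sign with 5 nt (0.348) and placed 5 nt upstream (0.426). Pearson's r between rise and unpaired probability was 0.185 against a rho of 0.344, which became 0.352 with the fold at 30°C and 0.412 with only 60 nt on each side folded. The number of raised positions was 34 when placed 5 nt upstream. Depth and molecule numbers are unknown and limit every percentage.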
